A study of Homo sapiens with 12 samples.

Results

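The genes described here are 41 genes of the amino acid stress response that is run by the transcription factor ATF4: ATF4 itself, genes known as its targets, the export receptor for tRNAs, and cytosolic aminoacyl-tRNA synthetases. They were chosen by gene symbol from a list, and 40 of the 41 were measured, out of 19775 genes named on the array. The probe sets of MARS1, the methionyl-tRNA synthetase gene, are listed with a further gene and were left out, so MARS1 is not analysed here. Of the 40, all passed the filter on low signal, which kept 14725 genes for testing. RNA came from H929, an established line of human multiple myeloma, a cancer of the plasma cells that secrete antibodies. There were 12 arrays, 3 in each of 4 groups. The infected arm consisted of H929 cells with a hairpin RNA directed at GFP (shGFP), which served as control, and of H929 cells with a hairpin directed at BCL9 (shBCL9), and GFP-positive cells of both were collected by flow cytometry. In the transfected arm, unsorted as far as the labels say, H929 cells were given a microRNA of a worm, cel-miR-67, as control, or the human microRNAs hsa-miR-30a/b/c/d/e (miR-30), without a statement of whether these were given together. All groups are of a single cell line, and no untreated cells were included.

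Cells that run short of amino acids, or that accumulate unfolded protein, haem-related or viral stress signals, phosphorylate the translation factor eIF2. This slows protein synthesis in general but increases translation of the ATF4 messenger RNA, and ATF4 then binds composite C/EBP-ATF response elements together with C/EBP partners. Its targets import and synthesise amino acids, charge tRNAs, supply one-carbon units and glutathione precursors, and, through TRIB3 and PPP1R15A, restrain the response again. Plasma cells and myeloma cells make large amounts of antibody and therefore have a high demand for amino acids and for protein folding. Arrays measure RNA, so the translational step that controls ATF4 itself is not seen in these data.

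All levels below are log2 intensities, on which a difference of 1 is a doubling, and each gene is read by its brightest probe set. Array medians ran from 5.46 to 5.53. Arrays of a group correlated across genes at r = 0.997 to 0.998, whereas the infected controls correlated with the transfected controls at 0.973 to 0.975. BCL9, the target of the hairpin, read 7.88, 7.90 and 7.88 in shGFP and 7.73, 7.61 and 7.85 in shBCL9, a difference of -0.15 that was not called (limma adjusted p = 0.0874), and it was not called with miR-30 either (0.14, adjusted p = 0.269). The targeted RNA therefore gave no check of the labels that passed the threshold. Of the 9 plasma cell markers, 8 passed the filter, and SDC1, CD38, TNFRSF17, PRDM1, IRF4, XBP1, JCHAIN and SLAMF7 had group means between 9.49 and 14.14, while IGHA1 did not pass. Of the markers of other cells that were named on the array, 4 of 9 for T and natural killer cells passed, 2 of 6 for myeloid cells, 3 of 4 for erythroid cells and 4 of 9 for stromal and epithelial cells, while CD3G, CD2, CD8A, NKG7, CD14, LYZ, EPCAM and LUM did not. The labels do not state whether arrays of the same group are separate cultures, and p-values thus cover only the variation among the arrays at hand, possibly technical. Because these are bulk samples, fewer cells of a type and less RNA per cell cannot be told apart.

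The promoters of several members hold the letters that ATF4 and C/EBP proteins are known to bind. The motif TGATGNAA was searched on both strands in RefSeq windows (GRCh38.p14) from 250 bases before to 50 bases after each gene's start. It does not overlap another motif searched here. Windows were given for 35 of the 41 members, and 15 of these 35 genes held the motif, in 15 of 56 windows (26.8%), against 1270 of all 35116 windows (3.62%). Of the 16746 windows of the genes tested, 371 (2.22%) held it. The list was made of genes known as ATF4 targets, so the high share is not independent of how the members were chosen. No window was given for NUPR1, PSPH, SHMT2, ALDH1L2, SLC7A11 and YARS1. The stretches below are from the 6 members that held the motif and rose with shBCL9, in the order of their adjusted p, and from ASNS, which was chosen after its values were seen because it is a known ATF4 target that did not pass the test in that comparison. They are written 5′ to 3′ on the strand of the gene, and capitals mark the motif, as TGATGNAA or as its reverse complement TTNCATCA.
ATF3: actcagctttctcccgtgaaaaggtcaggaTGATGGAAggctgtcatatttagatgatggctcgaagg
SLC1A5: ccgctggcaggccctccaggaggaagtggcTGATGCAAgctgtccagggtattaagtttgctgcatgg
SLC3A2: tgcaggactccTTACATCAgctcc
CEBPG: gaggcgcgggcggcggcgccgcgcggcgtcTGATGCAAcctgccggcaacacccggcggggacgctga
CHAC1: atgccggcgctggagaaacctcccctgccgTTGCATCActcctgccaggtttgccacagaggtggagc
AARS1: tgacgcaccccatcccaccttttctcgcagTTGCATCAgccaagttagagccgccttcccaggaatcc
ASNS: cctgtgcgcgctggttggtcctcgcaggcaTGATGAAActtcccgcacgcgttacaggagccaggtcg
These stretches lie at chr1:212565186-212565253 on the plus strand for ATF3, chr19:46784874-46784941 on the minus strand for SLC1A5, chr11:62881725-62881748 on the plus strand for SLC3A2 and chr19:33374041-33374108 on the plus strand for CEBPG. Those of CHAC1, AARS1 and ASNS lie at chr15:40953232-40953299 (plus), chr16:70289656-70289723 (minus) and chr7:97872439-97872506 (minus). Counted from the start of the gene, the motif began at -191 in ATF3, -97 in SLC1A5, -42 in CEBPG, -209 in CHAC1, -187 in AARS1 and -68 in ASNS, so in these 6 it lay upstream. In SLC3A2 it began at 38, within the transcribed part. The motif was also found in JDP2, SLC7A1, SLC1A4, CARS1, GARS1, IARS1, MARS1 and NARS1. By role, it was in 6 of 10 tRNA charging and export genes with a window, 4 of 6 transporters, 3 of 7 transcription factors, 1 of 5 enzymes, 1 of 5 stress effectors and 0 of 2 genes of secreted or surface proteins. A match describes the letters and does not show binding.

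The members separated the infected from the transfected cells. In each of the 3 shGFP arrays 39 or 40 of the 40 members lay below their own mean over the 12 arrays, and in each of the 3 shBCL9 arrays 38 or 39 did. In each cel-miR-67 and miR-30 array 39 or 40 members lay above it. The mean is over both arms, so low values in one arm go with high values in the other, and these counts are not independent. Such counts were not made for all genes, of which 33.0% were called lower in shGFP than in cel-miR-67. The median deviation of the members was -0.60 to -0.55 in the shGFP arrays, -0.46 to -0.38 in the shBCL9 arrays, 0.53 to 0.57 in the cel-miR-67 arrays and 0.46 to 0.54 in the miR-30 arrays. The 4 groups did not overlap in this measure except that cel-miR-67 and miR-30 did.

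**Figure D1:**
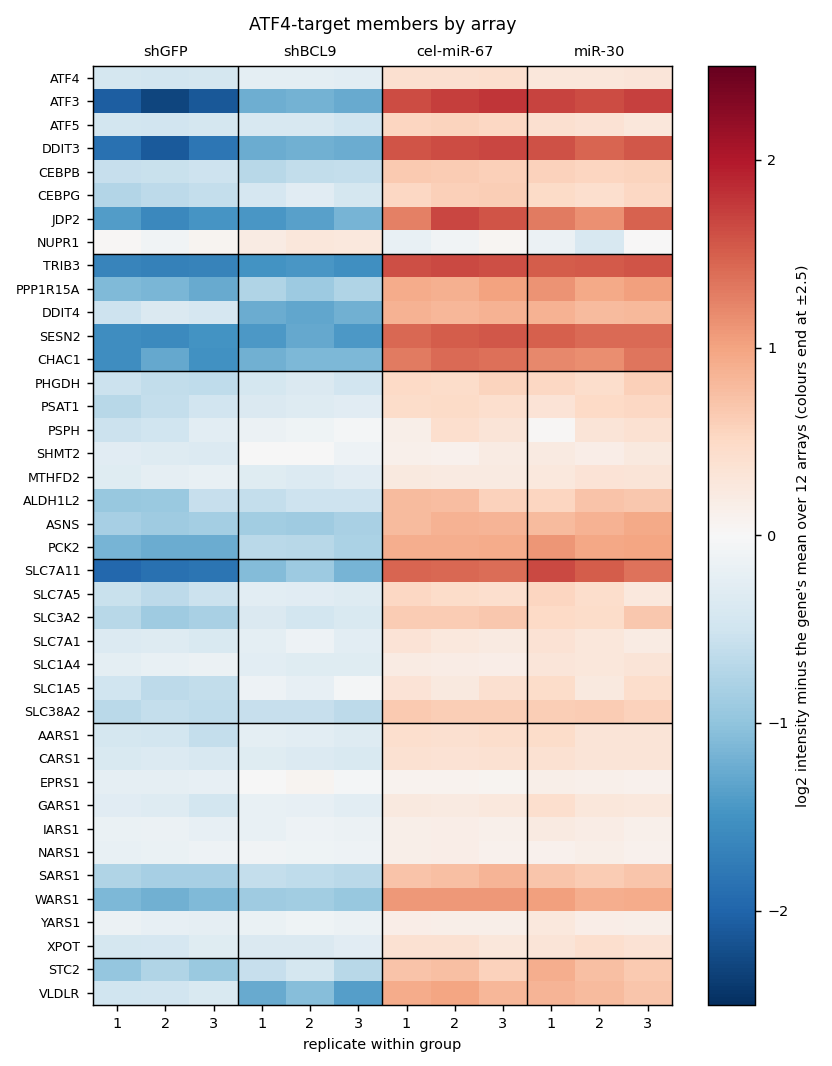
Level of each of the 40 measured members (rows, ordered by role) on each of the 12 arrays (columns, in their 4 groups), as the log2 difference from the member's own mean over all arrays. Nearly all members are below their mean in the 6 infected arrays and above it in the 6 transfected arrays, and NUPR1 is not.

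Compared directly, 39 of the 40 members were lower in shGFP than in cel-miR-67 cells and 0 were higher (limma, adjusted p under 0.05), with a median difference of -1.14, while the median over all 14725 genes was 0.02. The background was high, since 4863 genes (33.0%) were called lower and 4181 (28.4%) higher. In 39 members all shGFP arrays lay below all cel-miR-67 arrays, where 66.1% of all genes had groups that did not overlap. The difference was at least 2-fold in 23 members and at least 4-fold in 10, whereas 944 of all genes were lower at least 2-fold and 151 at least 4-fold. The infection, the hairpin, the sorting, the transfection and any processing batch differ between these control groups together and cannot be told apart.

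Among the transcription factors, 7 of 8 were lower in shGFP. ATF3, a stress-induced factor of the ATF family, read 6.67, 6.44 and 6.61 in shGFP and 10.36, 10.46 and 10.51 in cel-miR-67. The difference of -3.87 ± 0.06 (SE, n = 3 per group) is 14.7-fold (adjusted p = 2.37e-13), and ATF3 ranked 11 of 14725 genes from the lowest difference. DDIT3, which encodes the factor CHOP that promotes cell death under prolonged stress, read 7.82, 7.59 and 7.88 against 11.26, 11.32 and 11.36, which is 11.7-fold (-3.55 ± 0.07, adjusted p = 7.24e-13), and ranked 22. For both genes the gap between the groups was far wider than the range within either. JDP2, a repressor of AP-1, differed by -2.98, CEBPG, a partner of ATF4 on DNA, by -1.23, CEBPB by -1.18 and ATF5 by -0.99.

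ATF4 itself differed less. Its levels were 12.83, 12.80 and 12.84 in shGFP, 13.03, 13.02 and 13.00 in shBCL9, 13.67, 13.67 and 13.68 in cel-miR-67 and 13.56, 13.56 and 13.56 in miR-30. No group overlapped another, and the order from low to high was shGFP, shBCL9, miR-30 and cel-miR-67. The difference between the controls was -0.85 ± 0.04 (1.80-fold, adjusted p = 1.21e-09). NUPR1, a small stress-induced regulator of transcription, was the exception among the 40 members, with overlapping levels of 5.53, 5.42 and 5.58 in shGFP and 5.33, 5.42 and 5.55 in cel-miR-67 (0.07, 95% interval -0.12 to 0.27, adjusted p = 0.502). Its levels are close to the filter level of 4.86 to 4.95.

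**Figure D2:**
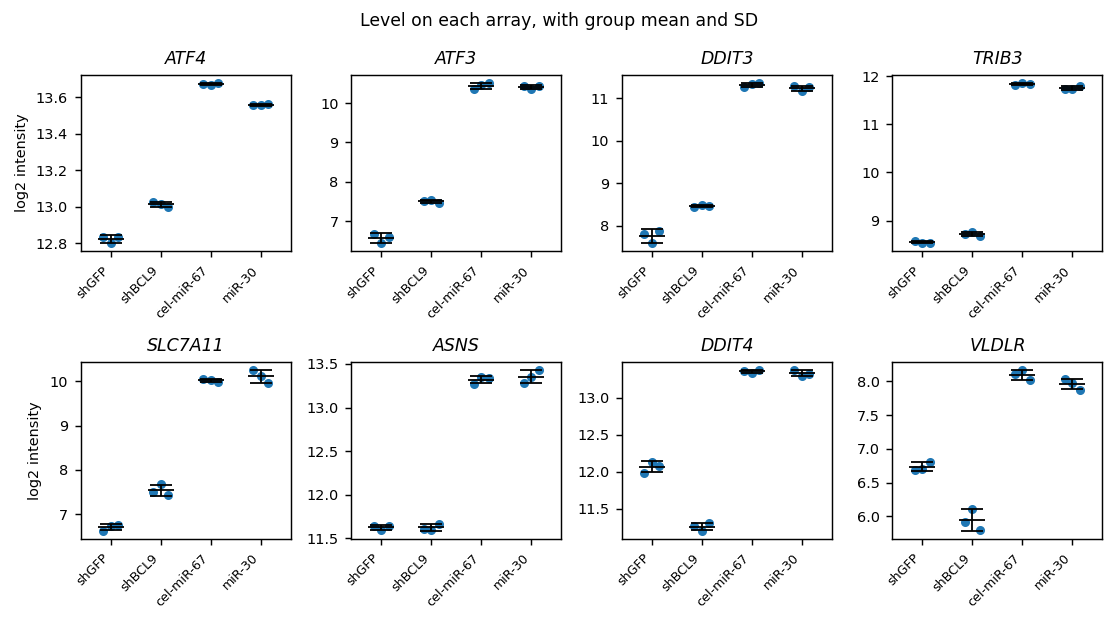
Log2 intensity (vertical axis, scaled per gene and not starting at 0) of 8 members on each array, by group; points are arrays, and bars give the mean and SD of 3. In these 8 genes the 6 transfected arrays lie above the 6 infected arrays, and DDIT4 and VLDLR are lower in shBCL9 than in shGFP.

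All 5 stress effectors were lower in shGFP than in cel-miR-67. TRIB3, a pseudokinase that restrains ATF4 and CHOP, read 8.57, 8.53 and 8.54 against 11.83, 11.87 and 11.83, which is 9.81-fold (-3.29 ± 0.04, adjusted p = 3.93e-14). SESN2, a leucine sensor that inhibits the growth kinase complex mTORC1, differed by -3.05 and CHAC1, which degrades glutathione, by -2.82. PPP1R15A, the phosphatase subunit that removes the phosphate from eIF2, differed by -2.11. DDIT4, a further inhibitor of mTORC1, differed by -1.29 between the controls. The effectors of this group had a median difference of -2.82.

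The 8 enzyme genes were all lower in shGFP too, over a wider range of sizes. PCK2, the mitochondrial enzyme that makes phosphoenolpyruvate, read 8.69, 8.61 and 8.61 in shGFP and 10.75, 10.76 and 10.78 in cel-miR-67 (-2.12 ± 0.05, 4.36-fold, adjusted p = 5.3e-12). ASNS, asparagine synthetase, read 11.65, 11.59 and 11.64 against 13.27, 13.35 and 13.34 (-1.69 ± 0.05, 3.24-fold, adjusted p = 3e-11). In neither did the groups overlap. The 3 enzymes of serine synthesis differed by -1.09 (PHGDH), -1.04 (PSAT1) and -0.73 (PSPH). Of the mitochondrial folate enzymes, ALDH1L2 differed by -1.53, MTHFD2 by -0.47 and SHMT2 by -0.46.

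Of the transporters, 7 of 7 were lower in shGFP. SLC7A11, the cystine and glutamate exchanger, read 6.63, 6.73 and 6.76 in shGFP and 10.05, 10.02 and 9.99 in cel-miR-67. That difference is 9.94-fold (-3.31 ± 0.08, adjusted p = 4.09e-12), and no arrays overlapped. SLC3A2, the heavy chain that SLC7A11 and SLC7A5 share, differed by -1.44 and SLC7A5, which carries leucine and other large neutral amino acids, by -1.05. SLC38A2, a carrier of small neutral amino acids, differed by -1.26, the glutamine carrier SLC1A5 by -0.91, the carrier of cationic amino acids SLC7A1 by -0.63 and SLC1A4 by -0.38. For SLC7A1 other probe sets gave 0.04 and 0.12, so its direction is not shared by all of them.

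The 9 synthetases measured and XPOT, which exports tRNAs from the nucleus, were all lower in shGFP, with a median of -0.67. WARS1, for tryptophan, stood out with 10.61, 10.53 and 10.62 in shGFP against 12.82, 12.81 and 12.82 in cel-miR-67 (-2.23 ± 0.05, 4.69-fold, adjusted p = 1.91e-12), and SARS1, for serine, followed with -1.58. The next were AARS1 (-0.92), CARS1 (-0.74), XPOT (-0.74), GARS1 (-0.60) and YARS1 (-0.35). IARS1 (-0.33), EPRS1 (-0.30) and NARS1 (-0.29) differed by 1.23-fold to 1.26-fold, yet their arrays did not overlap either. NARS1, for asparagine, read 13.10, 13.13 and 13.16 against 13.43, 13.44 and 13.39. STC2, a secreted glycoprotein, and VLDLR, a lipoprotein receptor, differed by -1.57 and -1.36.

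**Figure D3:**
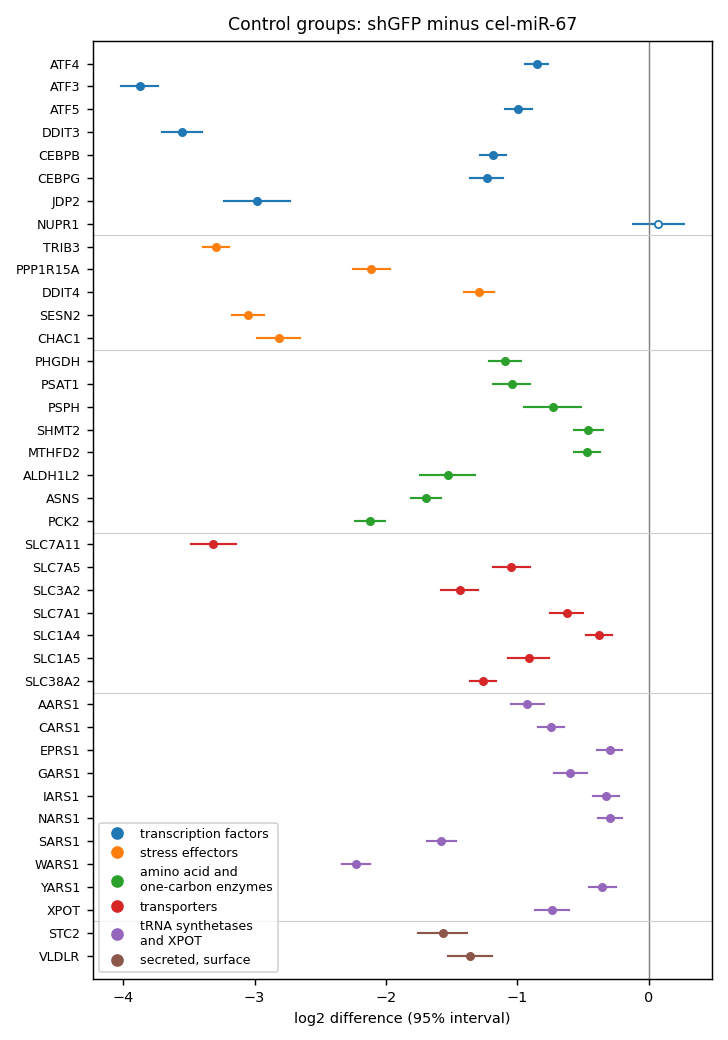
Log2 difference, shGFP minus cel-miR-67, of each measured member (horizontal axis) with its 95% interval from limma, 3 arrays per group; filled points passed an adjusted p under 0.05, and colours are roles. The differences run from -3.87 (ATF3) to 0.07 (NUPR1), and NUPR1 is the open point.

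Between the controls, the other probe sets of ATF5 gave -1.02, -0.15 and -0.05 and those of SLC1A4 gave -0.53, -0.43, -0.36 and -0.05, while the single other probe set gave -0.02 for MTHFD2 and -0.02 for YARS1. A sign of RNA quality, the GAPDH 3′ minus 5′ signal, had means of 0.14 in shGFP and 0.13 in shBCL9. Its means were 0.18 in cel-miR-67 and 0.20 in miR-30. Another such sign moved more with the groups. The ACTB 3′ minus 5′ signal was 1.17 to 1.36 in shGFP, 1.59 to 1.75 in shBCL9, 2.06 to 2.21 in cel-miR-67 and 2.06 to 2.08 in miR-30. With this value as a covariate, 22 members were still called lower between the controls, all 40 differences were below 0 and their median was -0.96, while the calls over all genes fell from 9044 to 1658. By role, 7 of 8 transcription factors and 5 of 5 stress effectors were still called, but 3 of 8 enzymes, 4 of 7 transporters, 3 of 10 tRNA charging and export genes and 0 of the secreted or surface pair. EPRS1 was then at -0.10 and NARS1 at -0.07. The ACTB signal did not overlap between these controls, so this fit cannot separate it from the groups. With the 18S rRNA signal or the poly-A spike-in signal as a covariate, 39 members were called lower. The calls over all 14725 genes, in either direction, then numbered 7209 with 18S and 8237 with the spike-in. Of the markers of other cells, KRT18 (-0.62) and CDH1 were lower in shGFP (CDH1 was below the filter level there and at least 2.11-fold above it in cel-miR-67), while PRF1 (0.84), HBB (0.47), CD3D (0.27) and COL1A1 (0.19) were higher, and their part in the result was not tested.

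Genes of the same pathway outside the 40 give a point of comparison between these controls. Of 14 further known targets of ATF4 or DDIT3 that passed the filter, 12 were lower in shGFP and 1 was higher. INHBE, which encodes a subunit of activin E, was below the filter level in all 3 shGFP arrays (mean 4.42) and had a mean of 11.10 in cel-miR-67, at least 72.7-fold higher when shGFP is set at that level (adjusted p = 1.65e-12). CTH, an enzyme of cysteine synthesis, differed by -3.64 and the death receptor gene TNFRSF10B by -2.59, and this pair was named after its values were seen. The synthetases that are not members did otherwise in counts: of 9 cytosolic ones 2 were lower and 6 higher, with a median of 0.30, and of 15 mitochondrial ones 2 were lower and 11 higher, with a median of 0.49. Of 16 further enzymes of amino acid and one-carbon metabolism, 6 were lower and 9 higher. Over all genes, 33.0% were lower and 28.4% higher in shGFP. The difference between these lists was not tested.

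**Figure D4:**
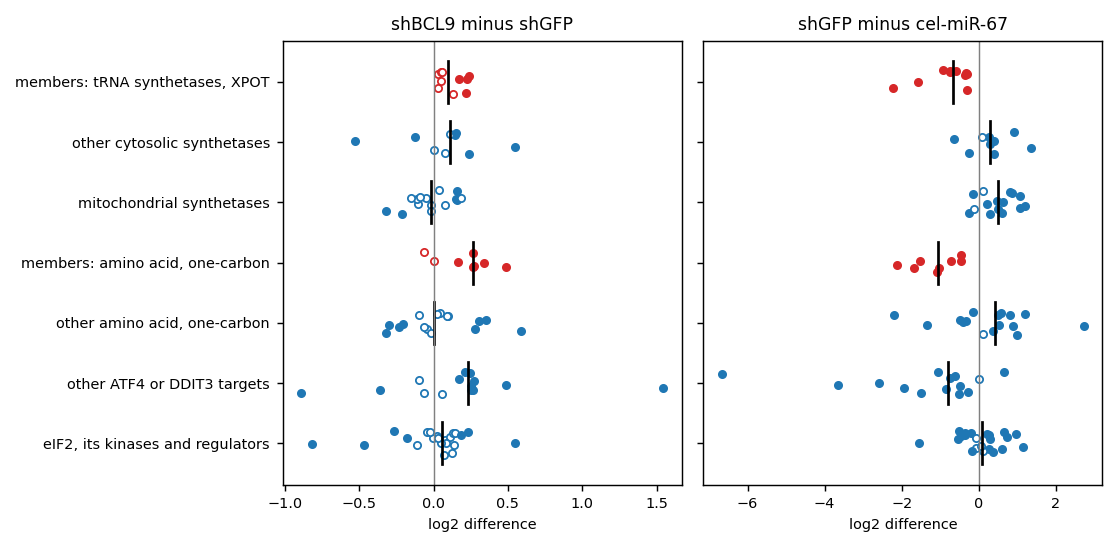
Log2 differences for shBCL9 minus shGFP (left) and for shGFP minus cel-miR-67 (right), where points are genes and bars are the median of the list. Drawn are the tRNA charging and export members and the enzyme members. The lists outside the members are the other synthetases, the other enzymes, the further ATF4 or DDIT3 targets and the eIF2 genes. The other member roles are not drawn. In the right panel the medians of both drawn member roles lie below 0. Those of the other cytosolic and the mitochondrial synthetases lie at 0.30 and 0.49, and INHBE is drawn at its fitted value.

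The hairpin against BCL9 was compared with the hairpin against GFP. The shGFP arrays enter this comparison and the preceding one, so the differences of a gene in the pair are not independent. With shBCL9, 24 of the 40 members rose and 2 fell, and 14 were not called. Over all genes, 2749 (18.7%) rose and 3369 (22.9%) fell. The median difference of the members was 0.18 against 0.03 over all genes, and the sizes were smaller than between the controls, with 0 members changed by 2-fold or more. All shBCL9 arrays lay above all shGFP arrays in 25 members and below them in 4, where 52.0% of all genes had groups that did not overlap.

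Of the 8 transcription factor genes, 5 rose and 0 fell. ATF3 rose from 6.67, 6.44 and 6.61 in shGFP to 7.51, 7.54 and 7.46 in shBCL9, by 0.94 ± 0.06 or 1.91-fold (adjusted p = 2.31e-07). DDIT3 rose from 7.82, 7.59 and 7.88 to 8.44, 8.50 and 8.46, by 0.71 ± 0.07 or 1.63-fold (adjusted p = 5.76e-06). All shBCL9 arrays lay above all shGFP arrays for both. CEBPG rose by 0.28 (adjusted p = 0.0023), although its other probe set gave -0.12, NUPR1 rose by 0.26 (adjusted p = 0.0383) and ATF4 by 0.19 (1.14-fold, adjusted p = 0.00238). ATF5 (0.03), CEBPB (-0.09) and JDP2 (0.16) were not called.

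All 5 stress effectors were called, and DDIT4 went against the other 4. DDIT4 read 11.99, 12.13 and 12.08 in shGFP and 11.26, 11.20 and 11.31 in shBCL9, so that it fell by 0.81 ± 0.05 (1.75-fold, adjusted p = 1.21e-07) with no overlap. PPP1R15A rose from 6.86, 6.82 and 6.70 to 7.21, 7.06 and 7.21, by 0.36 ± 0.07 (adjusted p = 0.000751). CHAC1 rose by 0.31 (adjusted p = 0.00614), TRIB3 by 0.17 (adjusted p = 0.00847) and SESN2 by 0.16 (adjusted p = 0.039). The other probe set gave 0.19 for TRIB3, not called (adjusted p = 0.284), and 0.56 for SESN2. DDIT4 and SESN2, both inhibitors of mTORC1, thus changed in opposite directions. The call of SESN2 by its brightest probe set was however lost without some single arrays and in several other fits.

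Of the 8 enzyme genes, 6 rose. PCK2 rose from 8.69, 8.61 and 8.61 to 9.17, 9.15 and 9.06, by 0.49 ± 0.05 (1.40-fold, adjusted p = 1.18e-05). The 3 genes of serine synthesis rose by 0.34 (PSPH), 0.27 (PSAT1) and 0.16 (PHGDH), SHMT2 rose by 0.26 and ALDH1L2 by 0.27. A further probe set of PSPH gave 0.27 and was not called (adjusted p = 0.0607). MTHFD2, the folate enzyme that acts after SHMT2, was not called (-0.07, adjusted p = 0.271). ASNS, whose promoter stretch is printed above, read 11.65, 11.59 and 11.64 in shGFP and 11.61, 11.60 and 11.67 in shBCL9. Its arrays overlapped and its difference was 0.00 (95% interval -0.11 to 0.11, adjusted p = 0.993).

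Of the 7 transporter genes, 4 rose, and these include the SLC3A2 heavy chain and both of its partners on the list. SLC7A11 rose from 6.63, 6.73 and 6.76 to 7.50, 7.68 and 7.43, by 0.83 ± 0.08 or 1.78-fold (adjusted p = 4.45e-06), although a further probe set gave 0.28 (adjusted p = 0.085). SLC1A5 rose from 8.91, 8.75 and 8.78 to 9.27, 9.20 and 9.35, by 0.46 ± 0.07 (adjusted p = 0.000247). SLC3A2 rose by 0.39 (adjusted p = 0.000379) and SLC7A5 by 0.29 (adjusted p = 0.00324), and in these 4 genes the groups did not overlap. SLC7A1 (0.14), SLC1A4 (-0.10) and SLC38A2 (0.03) were not called, but 2 other probe sets of SLC1A4 gave -0.30 and -0.26 (adjusted p = 0.008 and 0.0039), and another of SLC7A1 gave 0.21 (adjusted p = 0.0189).

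Among the synthetases and XPOT, 4 of 10 rose and 0 fell. WARS1 rose from 10.61, 10.53 and 10.62 to 10.84, 10.86 and 10.78, by 0.24 ± 0.05 (adjusted p = 0.00197). Its other probe set gave 0.15 and was not called (adjusted p = 0.0564). AARS1 rose by 0.23 (adjusted p = 0.00788), EPRS1, which charges glutamate and proline, by 0.22 (adjusted p = 0.00205) and SARS1 by 0.17 (adjusted p = 0.0174). CARS1, GARS1, IARS1, NARS1, YARS1 and XPOT had differences between 0.03 and 0.13 and were not called, and for XPOT the other probe set gave -0.19 (adjusted p = 0.0246). STC2 rose by 0.32 (adjusted p = 0.0104), and its other probe set gave 0.86. VLDLR read 6.69, 6.70 and 6.81 in shGFP and 5.92, 6.11 and 5.80 in shBCL9 and fell by 0.79 ± 0.08 (1.73-fold, adjusted p = 5.03e-06), with no overlap.

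**Figure D5:**
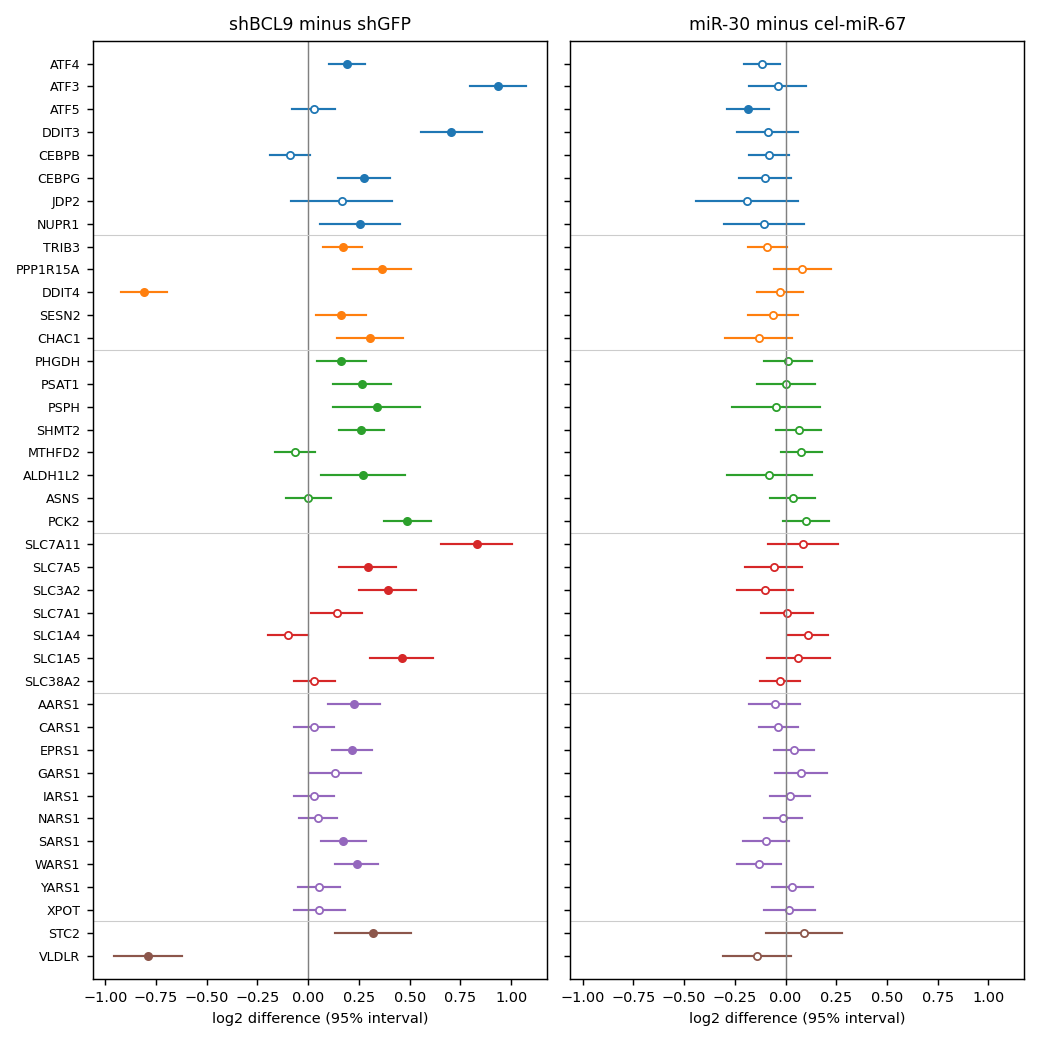
Log2 difference of each measured member (horizontal axis, with its 95% interval from limma, 3 arrays per group) for shBCL9 minus shGFP and for miR-30 minus cel-miR-67; filled points passed an adjusted p under 0.05, and colours are roles as in the labels of the list order (transcription factors at the top, then stress effectors, enzymes, transporters, tRNA charging and export, secreted and surface proteins). With shBCL9 most filled points lie right of 0 and DDIT4 and VLDLR left of it, while with miR-30 ATF5 is the single filled point.

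Of the 24 rises with shBCL9, 6 depended on single arrays. NUPR1 was not called when shGFP replicate 1 or 2 or shBCL9 replicate 1, 2 or 3 was left out (adjusted p = 0.0573 to 0.131), and neither was ALDH1L2 (adjusted p = 0.0558 to 0.139), whose arrays overlapped in the first place. SESN2 was not called without shGFP replicate 1 or 2, shBCL9 replicate 2 or cel-miR-67 replicate 2 (adjusted p = 0.0519 to 0.152). PHGDH was not called without shGFP replicate 2 or 3 or shBCL9 replicate 1 or 2 (adjusted p = 0.0744 to 0.111). PSPH was not called without shGFP replicate 1 or 2 or shBCL9 replicate 3 (adjusted p = 0.055 to 0.0583), nor SARS1 without shGFP replicate 2 or 3 or shBCL9 replicate 1 (adjusted p = 0.0517 to 0.0646). The other 18 rises and both falls were called whichever array was left out.

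Measures of the arrays moved with the hairpin as well. The 18S rRNA signal was 12.30 to 12.43 in shGFP and 13.20 to 13.24 in shBCL9, and the poly-A spike-in signal was 6.45 to 6.70 and 5.58 to 6.36. With the ACTB 3′ minus 5′ signal as a covariate 7 members rose and 2 fell, and with the spike-in 14 rose and 2 fell. Over all 14725 genes, 2967 were called in either direction with ACTB and 2990 with the spike-in. With the 18S signal 0 members were called in either direction, and 11 genes were called over the whole array in place of 6118. The 18S, ACTB and spike-in signals did not overlap between shGFP and shBCL9, so these fits cannot separate them from the hairpin. The median difference of the members was 0.15 with ACTB, 0.22 with the spike-in and 0.21 with 18S, against 0.18 without a covariate. GZMB and PRF1, listed as markers of T and natural killer cells, fell by 1.34 and 0.63 with shBCL9, CD3D and CD3E were not called, and the other 5 markers of that list did not pass the filter. KRT18 rose by 0.50 (adjusted p = 6.45e-05). Of the plasma cell markers SDC1 rose by 0.88, CD38 by 0.71 and SLAMF7 by 0.60, while PRDM1 fell by 0.22 and TNFRSF17 by 0.18. The part of these markers in the members' changes was not tested.

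The genes that act before ATF4 changed in both directions with shBCL9. Of 12 genes of the eIF2 kinases, eIF2 and its exchange factor eIF2B, 2 rose and 1 fell, and of 10 further regulators of eIF2 1 rose and 3 fell. Of these 22 genes together 13.6% rose and 18.2% fell, no more than the 18.7% and 22.9% of all genes. EIF2AK3, the kinase PERK that senses unfolded protein, rose from a mean of 11.71 to 12.26 (0.54, adjusted p = 5.74e-06), and EIF2AK2, the kinase PKR that senses double-stranded RNA, rose by 0.23 (adjusted p = 0.035). EIF2AK1, the kinase HRI that senses haem and mitochondrial stress, fell by 0.47 (adjusted p = 3.79e-05), and OMA1, the mitochondrial protease that signals to it, fell by 0.82 (adjusted p = 1.55e-06). EIF2AK4, the kinase GCN2 that senses uncharged tRNA, was not called (0.14, adjusted p = 0.148), and IMPACT, an inhibitor of GCN2, fell by 0.26 (adjusted p = 0.0208). EIF2AK4 had means of 7.43 in shGFP and 8.98 in cel-miR-67, a difference of -1.55 between the controls (adjusted p = 9.81e-10). In that comparison 8 of the 12 genes of the kinases, eIF2 and eIF2B were higher in shGFP and 4 were lower. Of the 10 further regulators, 2 were higher and 4 lower, where 28.4% of all genes were higher and 33.0% lower. RNA levels of the kinases do not show their activity.

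Of the 14 further ATF4 or DDIT3 targets, 8 rose (57.1%) and 2 fell (14.3%) with shBCL9, where 18.7% of all genes rose and 22.9% fell. INHBE, below the filter level in shGFP, rose to a mean of 5.97, at least 2.08-fold above that level (adjusted p = 3.67e-06), and EIF4EBP1, a repressor of translation initiation, rose by 0.49 (adjusted p = 1.42e-05). NIBAN1, a stress-induced gene, fell by 0.89 (adjusted p = 2.85e-07) and HERPUD1, which takes part in the degradation of misfolded protein, by 0.36 (adjusted p = 3.79e-05). Of 9 other cytosolic synthetases 4 rose and 2 fell, among them VARS1 (0.55), FARSB (0.24), TARS1 (0.15) and TARS3 (-0.53). Of 15 mitochondrial synthetases 3 rose and 2 fell, among them EARS2 (-0.32), CARS2 (-0.21), IARS2 (0.16) and NARS2 (0.16). Of 16 other amino acid and one-carbon enzymes 4 rose and 4 fell, among them GLUD1 (-0.32), ALDH1L1 (-0.30), MTHFD1 (0.30) and PYCR1 (0.35).

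The changes were also set against the motif in the promoter windows, as a description. Of the 14 measured members with the motif, 6 rose and 0 fell, with a median difference of 0.15. Of the 20 with windows that lacked it, 13 rose and 2 fell, with a median of 0.17. DDIT3, PCK2 and DDIT4 belong to these 20, and SLC7A11 to the 6 without a window. Between the controls the medians were -0.92 with the motif and -1.28 without it.

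The microRNAs of the transfected arm share a seed, the bases that pair with target RNAs. Mature sequences of 3 of the family were taken from RefSeq (GRCh38.p14) and are shown because they are the agent of this comparison, with the seed, bases 2 to 8, in capitals. The others given to the cells were hsa-miR-30b and hsa-miR-30d.
hsa-miR-30a-5p: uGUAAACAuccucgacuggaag
hsa-miR-30c-5p: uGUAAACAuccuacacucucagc
hsa-miR-30e-5p: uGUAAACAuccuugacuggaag
The genes lie at chr6:71403595-71403616 on the minus strand for the mature miR-30a-5p, chr1:40757300-40757322 on the plus strand for miR-30c-5p and chr1:40754371-40754392 on the plus strand for miR-30e-5p.

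With miR-30, 0 of the 40 members rose and 1 fell in limma, while 345 of all genes (2.34%) rose and 388 (2.63%) fell. The median difference of the members was -0.03, against -0.02 over all genes. At an unadjusted p under 0.05, 1 member was higher and 3 were lower, of 1130 and 1961 genes in all. ATF5 was the member that fell, from 12.40, 12.41 and 12.38 to 12.26, 12.22 and 12.15, by 0.19 ± 0.05 (1.14-fold, adjusted p = 0.0461), with no overlap. Its other probe sets gave -0.26, -0.10 and 0.17, and it was no longer called when shGFP replicate 1, 2 or 3, cel-miR-67 replicate 1, 2 or 3, shBCL9 replicate 1 or 2, or miR-30 replicate 2 or 3 was left out (adjusted p = 0.0559 to 0.151).

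The other 39 members had differences between -0.19 and 0.11, all not called. ATF4 varied little within a group, with 13.67, 13.67 and 13.68 in cel-miR-67 and 13.56, 13.56 and 13.56 in miR-30, so that its arrays did not overlap although the difference of -0.12 ± 0.04 missed the threshold (adjusted p = 0.123). ATF3 read 10.36, 10.46 and 10.51 against 10.43, 10.35 and 10.43 (-0.04, 95% interval -0.18 to 0.10), and ASNS read 13.27, 13.35 and 13.34 against 13.28, 13.35 and 13.43 (0.04, 95% interval -0.08 to 0.15). In both the arrays overlapped. All miR-30 arrays lay above all cel-miR-67 arrays in 5 members and below them in 6, where 26.1% of all genes had groups that did not overlap. JDP2 (-0.19), VLDLR (-0.14), CHAC1 (-0.13) and WARS1 (-0.13) had the lowest of the differences not called, and SLC1A4 (0.11), PCK2 (0.10) and STC2 (0.09) the highest.

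The effects of both treatments were compared in the same fit, as the miR-30 effect minus the shBCL9 effect. Of the 40 members, 19 differed, 16 of them with the lower effect in the miR-30 arm and 3 with the higher, where 26.3% of all genes differed. The most negative differences were -0.97 for ATF3 (adjusted p = 8.38e-06), -0.79 for DDIT3 (adjusted p = 8.9e-05) and -0.74 for SLC7A11 (adjusted p = 0.000416), genes that rose with shBCL9. The 3 genes with the higher effect in the miR-30 arm were DDIT4 (0.78, adjusted p = 8.62e-06), VLDLR (0.65, adjusted p = 0.000831) and SLC1A4 (0.21, adjusted p = 0.0281). ATF4 differed by -0.31 (adjusted p = 0.00179), WARS1 by -0.37 (adjusted p = 0.00193) and PCK2 by -0.39 (adjusted p = 0.00216). The treatments were delivered differently to cells in which the controls already differed in 39 members, so agent and delivery cannot be told apart here.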

How the data were processed

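Trizol-extracted RNA of 12 samples was biotin-labelled by in vitro transcription from the 3′ end, per the labels' protocols. The deposited table holds log2 intensity values that the authors made with RMA and affy (versions not given), per the submitters' processing notes. Of 54675 probe sets, the 41097 with 1 gene symbol were named. Each of 19775 genes was read by its brightest probe set over the 12 arrays, and 14725 genes above the 40th percentile of an array in at least 3 arrays were tested. Group means over the 12 arrays were modelled with lmFit and eBayes of limma 3.58.1 in R 4.3.3. Contrasts with a Benjamini-Hochberg adjusted p under 0.05, over all genes tested, were called, and all adjusted p-values are limma's. Intervals are 95% intervals of the fit. Plots come from matplotlib 3.10.9 in Python 3.11.15.

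The members, the gene lists and the tests were chosen with earlier results of these data known. All members are accounted for, other lists are named by up to 4 called genes by adjusted p with shBCL9, the eIF2 kinases and BCL9 are named whatever their values, and promoters were printed for up to 6 members with the motif that were called with shBCL9. Read depth does not apply to arrays, and 3 arrays per group limit the precision. Deviations of same-numbered arrays from their group means correlated weakly and positively (r = 0.050 to 0.23). The same number was the best match in some pairs but not for replicate 1 of shGFP or of cel-miR-67. The replicate numbers were not taken to pair the samples, but pairing is not excluded, and a fit with the replicate number as a block is given below.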

Additional observations from a re-analysis of the deposited data

How the results depend on the processing

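The count of 39 members lower in shGFP than in cel-miR-67 held under every alternative run except the ACTB covariate (22), a 2-fold minimum (23) and plain probe sets, which tested 27 members and called 26, and stayed at 39 to 39 when an array was left out. The 24 rises with shBCL9 ran from 18 to 24 without single arrays. They numbered 7 with the ACTB covariate, 14 with the poly-A spike-in, 0 with the 18S signal and 0 at 2-fold. The 2 falls became 4 with probe sets averaged per gene and 0 with the 18S signal or 2-fold. Plain probe sets gave 0 falls, but DDIT4 and VLDLR had no such probe set and were not tested there. The call of ATF5 with miR-30 was lost with no filter, the mean of probe sets, quantile normalization, the 6 arrays alone and the replicate block. It was also lost with the ACTB, spike-in or 18S covariate, a threshold of 0.01 or 2-fold. ATF5 had no plain probe set and was not tested with those. The members called lower with miR-30 ran from 0 to 1 without single arrays and numbered 3 with trend and robust estimation. The 19 differences of effects were 12 with plain probe sets (27 members tested), 7 with ACTB, 0 with 18S, 12 at a threshold of 0.01 and 0 at 2-fold. They ran from 16 to 21 without single arrays, and fits of 6 arrays give no such difference. With the replicate block, 23 members rose and 2 fell with shBCL9, 0 fell with miR-30, 22 effects differed and 39 members were lower between the controls. With shBCL9, 5 members had differences below 0, against 11 with ACTB and 10 with 18S, most of them not called, and with miR-30 the probe sets of 7 members, 6 of them not called, differed in sign. Where the main or the alternative value was called, some signs reversed. With shBCL9 this held for PSAT1 (-0.34) and ALDH1L2 (-0.89) with the 18S covariate and for ALDH1L2 (-0.067) and STC2 (-0.056) with ACTB. It also held for CEBPG (-0.12) and XPOT (-0.19) in another probe set. With miR-30 it held for ATF5 (0.17) in another probe set, and between the controls for SLC7A1 in others (0.039 and 0.12). Of these reversed values only that of XPOT was called, and XPOT was not called in the main fit (0.055, limma adjusted p = 0.465). With the 18S covariate, whose signal did not overlap between the hairpin groups, 11 genes in all were called with shBCL9. The cause of the shifts was not tested. Signal over background limits NUPR1 and JDP2, the members nearest the filter level.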

Other observations

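Lists of neighbouring stress pathways, given as values, did not follow the members' counts with shBCL9. Over all genes tested, 18.7% rose and 22.9% fell with shBCL9, while 28.4% were higher and 33.0% lower in shGFP than in cel-miR-67. Of 15 genes of the IRE1 and ATF6 branches of the unfolded protein response, 2 rose (13.3%) and 4 fell (26.7%), near the shares of all genes. HSPA5, the chief chaperone of the endoplasmic reticulum, fell by 0.77 (limma adjusted p = 2.66e-08) and its cochaperone gene DNAJB9 by 0.93 (limma adjusted p = 5e-08). CRELD2 fell by 0.39 and SDF2L1 rose by 0.51. Between the controls 9 of these 15 were lower in shGFP and 1 was higher. Of 12 targets of NRF2, the factor of the oxidative stress response, 1 rose and 6 fell with shBCL9. The gene that rose was SLC7A11, which is also among the ATF4 targets, and HMOX1, which degrades haem, fell by 1.39 (adjusted p = 7.24e-08), ME1 by 0.78, GCLM by 0.54 and GCLC by 0.25. Between the controls 8 of the 12 were higher in shGFP and 1, SLC7A11, was lower. HMOX1 had means of 9.54 in shGFP, 8.15 in shBCL9, 8.41 in cel-miR-67 and 8.23 in miR-30.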
